A study of Mus musculus with 43 samples.

Results

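The genes described here encode subunits of the nucleosome remodelling and deacetylase complex (NuRD) other than its methyl-CpG-binding-domain proteins. They were chosen by symbol, and all 10 (Gatad2a, Gatad2b, Chd3, Chd4, Mta1, Mta2, Mta3, Hdac1, Hdac2 and Rbbp4) were found once in each of the 5 expression tables, among 38964 genes that the tables share. NuRD joins an ATP-driven remodelling motor to histone deacetylases in 1 complex. Its motor is Chd3 or Chd4, its deacetylases are Hdac1 and Hdac2, its Mta proteins form the scaffold that holds the deacetylases, and Rbbp4 binds histones. Gatad2a and Gatad2b are zinc finger proteins that tie the motor and the methyl-CpG-binding-domain protein to the rest, so the complex can be built with either paralog of each kind. In mouse embryonic stem cells NuRD is known for repressing or tuning genes of the pluripotency programme.

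Poly(A) RNA was sequenced from mouse cells during reprogramming of embryonic fibroblasts (MEF) to induced pluripotent stem cells (iPSC) and from cells with altered Myc, 43 libraries in all. The Mbd3f/- system, named in the labels for a floxed and a null allele of the NuRD gene Mbd3, gave 11 libraries: MEF, days 1 to 8, an iPSC line and an embryonic stem (ES) cell line. The Gatad2a-/- system, with both alleles of Gatad2a disrupted, gave 10, at those stages apart from ES. From WT-1, a wild-type system, came 7 libraries, which cover MEF, even days from 2 to 8, iPSC and ES. From WT-2, a wild-type line isogenic to Gatad2a-/-, came 6 at those stages, again apart from ES. Mbd3f/- and Gatad2a-/- are called the depleted systems below. All 4 systems are secondary MEF with a doxycycline-inducible cassette of Oct4, Klf4, Sox2 and Myc (OKSM), so the wild-type cells carry the cassette and receive doxycycline too. Induction began in serum and LIF at 5% oxygen. On day 3.5 the design text has the medium change to serum replacement plus LIF and 2i, inhibitors of the kinases MEK and GSK3, while the growth protocol gives an earlier addition of 2i. Cells from day 3 on, iPSC (3 or more passages) and ES (V6.5 for WT-1) grew on irradiated human foreskin fibroblasts, so time, medium and feeder layer cannot be told apart along a course. In a further table, an Mbd3f/- line was given OSK (Oct4, Sox2 and Klf4) with cMyc, OSK alone or cMyc alone for 4 days. That table also holds secondary MEF from Mbd3flox/- chimeras with an inducible OKS-mCherry cassette, treated with siRNA against cMyc, nMyc and lMyc, with a Myc inhibitor or with a scrambled siRNA. Each stage of a system is 1 library and each iPSC or ES sample is 1 line.

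Values are FPKM, fragment numbers scaled to transcript length and library size, a level per length, so genes may be compared within a library. The 5 tables were normalized separately, and levels in different tables are set side by side without a test. The depth of the libraries is unknown. Genes at an FPKM of at least 1 numbered 12262 to 13977 in Mbd3f/-, WT-1 and WT-2 but 15481 to 16888 in Gatad2a-/-, where the most abundant gene took 11.6 to 25.0% of the summed FPKM. Fibroblast markers (15 genes, none listed at 0 in any course library) stayed between 5526 and 13019 summed FPKM through day 8 in both WT systems, and were down to 253 in Gatad2a-/- and 111 in Mbd3f/- on day 8. Macrophage and blood markers (7 genes, none at 0 through day 8) summed to between 3866 and 8021 in WT-2 from MEF to day 8 and to 102 in its iPSC, where 2 of 7 were at 0. The sum was at most 1124 in the other systems. Cell cycle genes (20 genes) summed to 103 to 467 in WT-2 through day 8 and to 2269 in its iPSC. The part of these other signals in the values below was not tested.

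How these FPKM divide reads between Hdac1 and a close copy is uncertain. Gm10093 (ENSMUSG00000061062) is a processed pseudogene on chromosome 17, plus strand, at chr17:78491582-78493025 (GRCm38, GENCODE M21). It matches the 1449-base coding sequence of Hdac1 (ENSMUSG00000028800, minus strand, chr4:129516104-129542713) with 9 mismatches and no gap over 1444 bases. The longest stretch without a difference is 450 bases. The whole Hdac1 transcript has 2038 bases, so part of it lies outside the match. The lines below give coding bases 363 to 482 of Hdac1 from the GENCODE M21 transcript and the same stretch of the Gm10093 transcript, shown because 6 of the 9 differences lie here. Capitals mark the bases that differ.
Hdac1: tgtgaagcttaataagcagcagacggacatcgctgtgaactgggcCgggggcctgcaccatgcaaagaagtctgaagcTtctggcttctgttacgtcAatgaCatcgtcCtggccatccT
Gm10093: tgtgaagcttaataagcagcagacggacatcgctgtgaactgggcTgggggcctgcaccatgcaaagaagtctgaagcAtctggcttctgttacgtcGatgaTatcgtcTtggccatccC
In the 4 tables other than that of Gatad2a-/-, Gm10093 took 56.0 to 94.0% of the summed FPKM of Hdac1 and Gm10093. In the Gatad2a-/- table it took 8.67 to 18.5%. Every Hdac1 level below therefore depends on how reads were assigned between the gene and its copy, and the Hdac1 levels of different tables are not comparable.

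**Figure D1:**
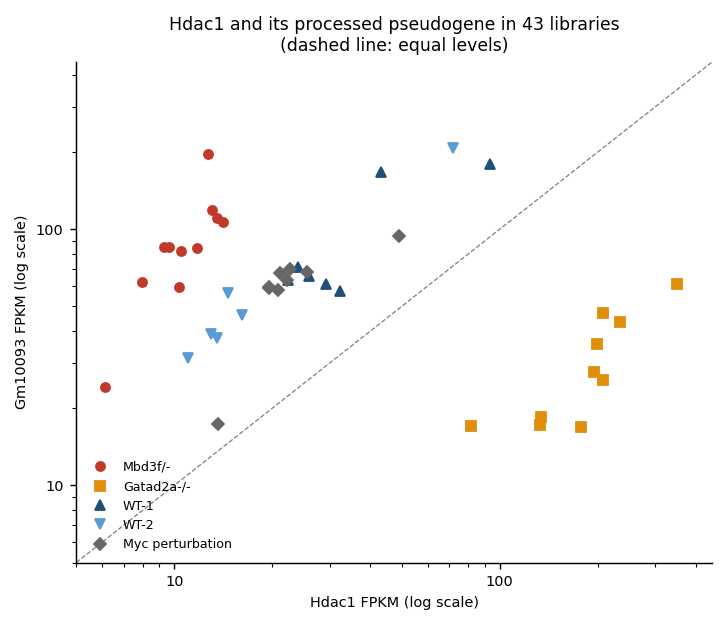
FPKM of Hdac1 (x axis, log scale) against FPKM of its processed pseudogene Gm10093 (y axis, log scale), 1 point per library, 43 libraries, with systems by colour and shape and a dashed line at equal levels. The 10 Gatad2a-/- libraries lie below the line, and the other 33 lie above it.

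Of the other members, Rbbp4 (ENSMUSG00000057236, minus strand, chr4:129307100-129335370) overlaps the opposite-strand lincRNA gene Gm26722 and the end of Sync. Gm26722 was between 16.5 and 43.2 FPKM in Gatad2a-/- and at most 0.916 in all other libraries. Gatad2a is on the minus strand at chr8:69907076-69996384 and Gatad2b on the plus strand at chr3:90293178-90363407. Chd3 (minus strand, chr11:69343273-69369406) and Chd4 (plus strand, chr6:125095981-125130591) lie on different chromosomes. Mta1 (chr12:113098278-113137206), Mta2 (chr19:8941875-8952303) and Mta3 (chr17:83706163-83821516) are all on plus strands, as is Hdac2 (chr10:36974544-37001889). No transcript of another gene matched these 8 members at 90% identity or more over 300 bases.

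Promoter sequences from the RefSeq table (GRCm38.p6) were matched for 7 members: Gatad2a, Gatad2b, Chd4, Mta1, Mta2, Hdac2 and Rbbp4. The 250 bases before the start were searched on both strands for the E-box CACGTG, which Myc and Max are known to bind, for CCAAT (also read as ATTGG), for GGGCGG and for TATAAA. The lines below give the first listed promoter of Rbbp4 (minus strand, chr4:129335371-129335620), the only one of these 7 with the E-box. They also give those of Gatad2a (minus strand, chr8:69996385-69996634) and Gatad2b (plus strand, chr3:90292931-90293180). From MEF to iPSC the levels of these paralogs went different ways in WT-1 and WT-2, while both rose in Mbd3f/- and Gatad2a-/-. Each promoter runs 5′ to 3′ on the gene's strand, and capitals mark CACGTG and CCAAT or ATTGG.
Rbbp4: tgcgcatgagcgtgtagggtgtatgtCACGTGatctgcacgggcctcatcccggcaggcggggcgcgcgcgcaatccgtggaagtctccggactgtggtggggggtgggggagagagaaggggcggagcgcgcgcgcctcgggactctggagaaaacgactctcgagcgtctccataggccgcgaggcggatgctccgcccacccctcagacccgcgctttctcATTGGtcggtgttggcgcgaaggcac
Gatad2a: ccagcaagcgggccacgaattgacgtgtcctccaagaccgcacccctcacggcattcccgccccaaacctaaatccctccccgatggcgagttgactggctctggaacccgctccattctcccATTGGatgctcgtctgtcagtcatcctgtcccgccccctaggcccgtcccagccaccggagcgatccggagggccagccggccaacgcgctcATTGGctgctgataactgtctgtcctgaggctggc
Gatad2b: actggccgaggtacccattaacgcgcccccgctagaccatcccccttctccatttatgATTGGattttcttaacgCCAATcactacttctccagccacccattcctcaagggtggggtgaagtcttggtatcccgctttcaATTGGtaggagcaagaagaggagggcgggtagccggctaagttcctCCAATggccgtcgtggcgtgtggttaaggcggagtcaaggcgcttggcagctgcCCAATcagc
Rbbp4 held 1 E-box and 1 CCAAT, Gatad2a 2 CCAAT and Gatad2b 5 CCAAT. The second listed promoters of Gatad2a and Gatad2b, not shown, held 0 and 1 CCAAT. Over all 32851 promoters of the table, 6.02% held CACGTG in the same window, 33.9% CCAAT, 32.7% GGGCGG and 12.4% TATAAA. No member promoter held TATAAA, and all 10 listed member promoters held GGGCGG. These 10 come from 7 genes, and the 2 of Chd4 overlap. They had 54 to 80.8% GC and 12 to 39 CG pairs, beside medians of 52.4% and 6 over all promoters. The part of this base content in the matches was not tested. A match is a description of the letters and not a shown binding site.

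Gatad2a, the targeted gene, was not at 0 in the Gatad2a-/- libraries: it was 8.59 to 14.7 FPKM there, beside 9.17 to 11.5 in isogenic WT-2 from MEF to day 8. Which part of Gatad2a was disrupted is not stated in these sources, so RNA of the targeted allele can still be counted, and the level checks the label only in part. In iPSC Gatad2a was 13.4 in Gatad2a-/- and 38.5 in WT-2. In Mbd3f/-, Mbd3 ranged from 36.3 to 96.5 FPKM, beside 75.3 to 117 in WT-1.

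Hdac1 was left out of the order of levels, since its values in different tables are not comparable. By the median over the 4 systems, whose tables were normalized separately, the order of the other 9 in MEF was Hdac2 (81.1), Chd3 (65.0), Chd4 (57.8), Rbbp4 (54.1), Mta2 (41.8), Mta1 (33.0), Mta3 (24.5), Gatad2a (10.4) and Gatad2b (8.55). The ranges over systems overlapped for each pair of neighbours in this order except Mta3 with Gatad2a. In iPSC it was Rbbp4 (164), Hdac2 (114), Mta3 (77.8), Chd4 (69.3), Mta2 (55.3), Gatad2a (33.8), Mta1 (30.5), Chd3 (9.24) and Gatad2b (7.83). There the neighbours overlapped as well, except Mta2 with Gatad2a and Mta1 with Chd3.

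The first question was how the subunits differ between fibroblasts and iPSC. In iPSC of all 4 systems Chd3 was lower, and Rbbp4, Hdac1, Mta3 and Gatad2a were higher, while Chd4, the other motor, and Mta1 did not pass the test. Of the 10 members, 6 rose and 1 fell in limma over the 4 systems (adjusted p under 0.05), where 53.0% of all 20296 genes tested were called, 29.0% higher and 23.9% lower. A share of 7 in 10 is therefore near the background for this large change of cell type. The median log2 change was 0.54 over the members and 0.14 over all genes. With quantile normalization 4 members rose and 1 fell (calls for Hdac2 and Mta2 lost), where 52.3% of all genes were called. With each library rescaled to a common sum of FPKM 3 rose (Hdac1, Mta3 and Rbbp4) and 2 fell (Chd3 and Gatad2b), where 36.9% of all genes were called. In such bulk samples, fewer cells of a type and less RNA per cell cannot be told apart.

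Chd3, a motor subunit, had the largest change of the 10 and the only fall that passed the test. Its FPKM was 44.9 in MEF and 6.47 in iPSC of Mbd3f/-, and 115 and 13.7 in Gatad2a-/-. It was 82.0 and 4.23 in WT-1, and 48.1 and 12.0 in WT-2. The lowest MEF value was more than the highest iPSC value, so the stages did not overlap, and the fitted log2 change was -2.87 ± 0.31 (SE, n = 4 systems; adjusted p = 5.6e-06). Chd4 was 57.3 in MEF and 73.0 in iPSC of Mbd3f/-, 105 and 120 in Gatad2a-/-, 58.4 and 41.6 in WT-1, and 47.8 and 65.6 in WT-2. Its stages overlapped, and its change of 0.13 ± 0.18 did not pass the test (adjusted p = 0.57) and was below 0 with either other scaling (-0.16 and -0.30).

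Rbbp4 was 70.3, 33.2, 104 and 37.9 in MEF of Mbd3f/-, Gatad2a-/-, WT-1 and WT-2, and 189, 95.6, 306 and 139 in their iPSC. It rose in each of the 4 systems (1.58 ± 0.15, adjusted p = 1.9e-06). Mta3, the Mta paralog with the lowest level in MEF, was 24.5, 24.6, 20.4 and 27.5 in MEF and 64.3, 97.1, 36.7 and 91.3 in iPSC, in the same order of systems. The groups did not overlap (1.45 ± 0.23, adjusted p = 0.00015). Mta2 rose less, by 0.44 ± 0.16 (adjusted p = 0.038), from 35.2 to 47.5 in MEF to 52.0 to 62.4 in iPSC. That call was lost when Mbd3f/-, WT-1 or WT-2 was left out, with adjusted p of 0.165, 0.0778 and 0.254. Mta1 was 24.0 to 40.1 in MEF and 14.2 to 39.7 in iPSC, and its change did not pass the test (-0.24 ± 0.28, adjusted p = 0.49).

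Of the deacetylases, Hdac2 rose by 0.65 ± 0.14 (adjusted p = 0.0016), from 72.2, 90, 92.8 and 47.3 in MEF to 92.1, 123, 147 and 106 in iPSC in the same order of systems. Hdac1 was 6.14, 81.6, 24.0 and 13.5 in MEF and 13.0, 349, 93.3 and 71.7 in iPSC. It was higher in iPSC within each table and rose by 1.82 ± 0.20 (adjusted p = 7.2e-06). Gm10093 was 24.2, 17.1, 71.3 and 37.7 in MEF and 119, 61.0, 180 and 207 in iPSC, so gene and copy were both higher. Summed with Gm10093, an alternative chosen after seeing the data, it rose by 2.02 ± 0.20. Of the Gatad2 pair, Gatad2a rose by 1.27 ± 0.23 (adjusted p = 0.00036), with changes of 1.78 in Mbd3f/-, 1.15 in WT-1 and 1.78 in WT-2 but 0.36 in Gatad2a-/-. Gatad2b missed the threshold (-0.59 ± 0.24, adjusted p = 0.054). Its changes by system were 0.36 in Mbd3f/- and 0.18 in Gatad2a-/- but -2.01 in WT-1 and -0.87 in WT-2, and without WT-2 the value was -0.87 with an adjusted p of 0.032. It also passed with a pseudocount of 0.1 (-0.79, adjusted p = 0.047) and when rescaled (-1.01, 0.043).

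**Figure D2:**
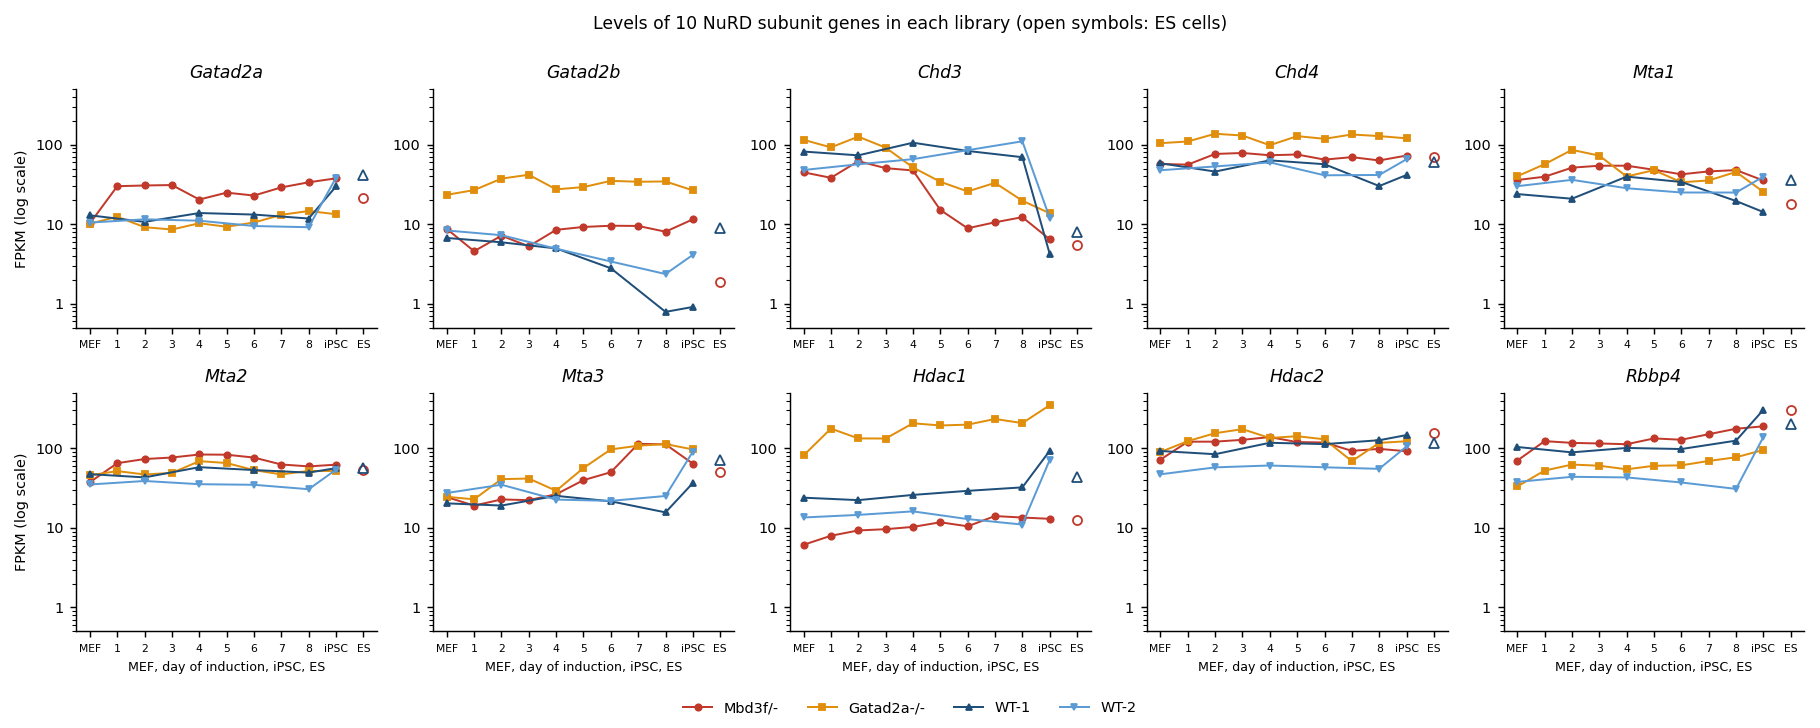
FPKM (y axis, log scale) of each member by stage (x axis: MEF, day of induction, iPSC, ES), 1 panel per gene and 1 line per system, with 1 library per point. Chd3 is lower in iPSC than in MEF or on any day in all 4 systems, and in Mbd3f/- and Gatad2a-/- its levels from day 5 on are below those of MEF and days 1 to 4.

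The balance within each paralog group was then compared, as a ratio of FPKM within a library. Chd4 exceeded Chd3 in iPSC of every system: Chd4 took 91.9, 89.7, 90.8 and 84.5% of the pair in Mbd3f/-, Gatad2a-/-, WT-1 and WT-2, beside 56.0, 47.6, 41.6 and 49.8% in MEF. The log2 ratio of Chd4 to Chd3 rose by 3.16 ± 0.55 (SD, n = 4 systems). Of the motor pair, Chd3 passed the test and Chd4 did not. The log2 ratio of Mta1 to Mta3 fell by 1.74 ± 0.60 (SD), lower in 4 of 4 systems, and Mta3 went from 22.2 to 29.7% of the summed Mta level in MEF to 34.2 to 55.6% in iPSC. The log2 ratio of Hdac1 to Hdac2 rose by 1.23 ± 0.38 (SD), and by 1.77, 1.61, 0.86 and 1.28 in the 4 systems with Gm10093 added to Hdac1. The log2 ratio of Gatad2a to Gatad2b was the most uneven, changing by 1.48 in Mbd3f/-, 0.21 in Gatad2a-/-, 4.09 in WT-1 and 2.89 in WT-2. The WT-1 value rests on Gatad2b at 0.913 FPKM in iPSC, a low level, and no pseudocount was added to the ratios. Of 6 ratios, each moved in the same direction in all 4 systems. Each exact two-sided sign-flip test gave p = 0.125 (adjusted 0.125 over the 6), the smallest value that 4 systems allow. None can therefore pass the threshold. The ratios among Mta1, Mta2 and Mta3 each follow from the others, so the 6 are not separate results.

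**Figure D3:**
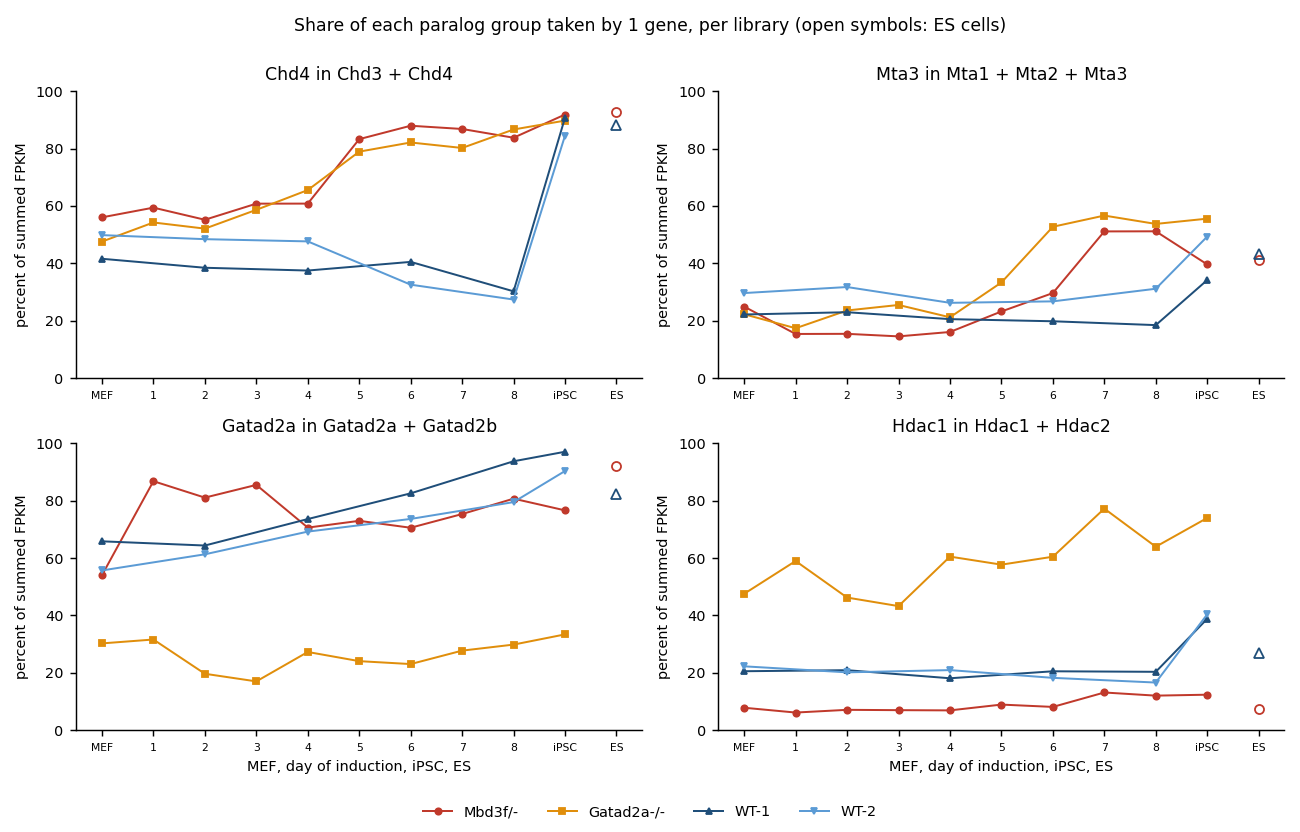
Percent of the summed FPKM of a paralog group taken by 1 gene (y axis) by stage (x axis), 1 line per system, 1 library per point. The Chd4 share is 83.3% in Mbd3f/- and 78.9% in Gatad2a-/- on day 5, while in WT-1 and WT-2 it stays below 50% until iPSC, and the Gatad2a share is lowest in Gatad2a-/- at every stage.

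The second question was when these changes occur, in depleted and WT systems. On days 2 to 8 the depleted systems already had much of the iPSC pattern for Chd3, Mta3, Hdac1 and Rbbp4, and no member passed the test in the WT systems. In the depleted systems 6 members rose and 1 fell against MEF (38.0% of all genes called, 20.5% higher and 17.5% lower). They were Mta3 (1.03 ± 0.26), Hdac1 (0.94 ± 0.23), Rbbp4 (0.91 ± 0.17), Gatad2a (0.69 ± 0.25), Hdac2 (0.64 ± 0.16), Mta2 (0.59 ± 0.18) and, falling, Chd3 (-1.13 ± 0.34). With quantile normalization 3 rose (Mta3, Hdac1 and Rbbp4) and Chd3 fell, where 38.2% of all genes were called. Rescaled, only the fall of Chd3 passed (-1.61, adjusted p = 0.014, 17.0% of all genes called). Without Mbd3f/- the rises of Hdac1 and Rbbp4 passed, and without Gatad2a-/- those of Gatad2a, Mta2 and Rbbp4, so the fall of Chd3 did not pass with 1 depleted system (adjusted p = 0.144 and 0.262). In the WT systems 0 members were called by limma (0.00493% of all genes, that is 1 gene). At an unadjusted p under 0.05 there was 1 member of 10, Gatad2b (-0.88 ± 0.27), and 1666 of all genes.

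Tested directly, the difference between depleted and WT passed for Rbbp4 alone, at 0.91 ± 0.24 (adjusted p = 0.022, 14.7% of all genes called and 5.53% higher). Rbbp4 changed by 0.90 in Mbd3f/- and 0.91 in Gatad2a-/- but by -0.02 in WT-1 and 0.02 in WT-2. Without any 1 system its value stayed between 0.89 and 0.93, and its adjusted p was 0.0591 to 0.118, so the call rests on all 4. It held with quantile normalization (0.70, adjusted p = 0.039), where Chd3 passed too (-1.69, 0.023), and neither passed when rescaled (0.46, 0.82 for Rbbp4). Chd3 (-1.47 ± 0.49, adjusted p = 0.059), Mta3 (1.08 ± 0.37, 0.064), Gatad2b (1.09 ± 0.38, 0.068) and Hdac1 (0.86 ± 0.32, 0.089) missed the threshold. With Gm10093 added, Hdac1 differed by 1.34 ± 0.32 (adjusted p = 0.015). That a member passed in one class and not in the other therefore does not show that the classes differ. For Rbbp4 the call holds for these 4 systems only. Class varies between systems, 2 against 2, and the stages of a course were counted as separate. For Gatad2a the depleted value rests on Mbd3f/-, which changed by 1.28 against 0.10 in Gatad2a-/-, and without Mbd3f/- it was 0.10 (adjusted p = 0.77). The same holds for Mta2, which changed by 0.93 in Mbd3f/- and was 0.25 without it (adjusted p = 0.40).

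**Figure D4:**
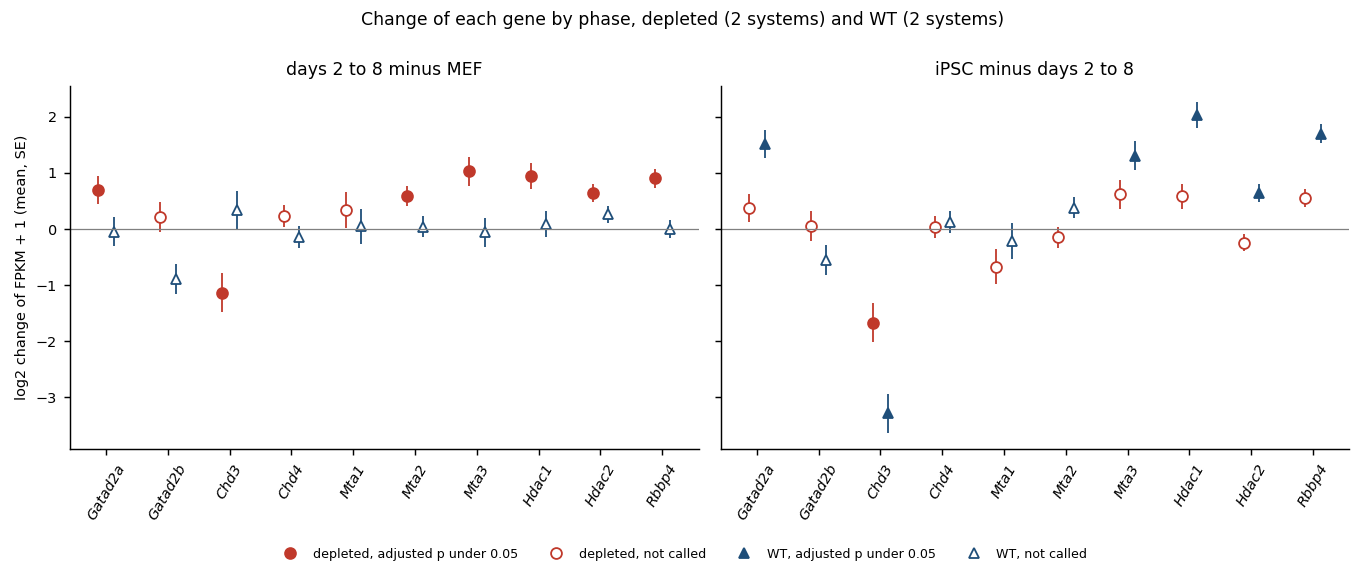
Log2 change of FPKM + 1 (y axis, mean with SE) of each member between MEF and days 2 to 8 (left) and between days 2 to 8 and iPSC (right), for the 2 depleted and the 2 WT systems, with filled symbols for an adjusted p under 0.05. Filled depleted symbols are mostly on the left (7 genes) and filled WT symbols all on the right (6 genes). Both panels use the same libraries of days 2 to 8.

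From days 2 to 8 to iPSC the order was the other way round. The libraries of days 2 to 8 enter both comparisons with opposite sign, so this is not an independent observation. In the WT systems 5 members rose and 1 fell (47.5% of all genes called, 25.0% higher and 22.5% lower). Chd3 changed by -3.29 ± 0.34, Hdac1 by 2.03 ± 0.23, Rbbp4 by 1.70 ± 0.17, Gatad2a by 1.51 ± 0.25, Mta3 by 1.31 ± 0.26 and Hdac2 by 0.64 ± 0.16. In the depleted systems only Chd3 was called (-1.66 ± 0.34, adjusted p = 0.0075, 9.55% of all genes called and 3.70% lower). The difference, depleted minus WT, passed for 5 members (26.4% of all genes called, 13.4% higher and 13.1% lower). It was 1.62 ± 0.49 for Chd3 (adjusted p = 0.027), -1.44 ± 0.32 for Hdac1 (0.0062), -1.14 ± 0.24 for Rbbp4 (0.0043), -1.13 ± 0.36 for Gatad2a (0.033) and -0.88 ± 0.22 for Hdac2 (0.012). Without WT-2 the WT calls for Gatad2a (1.21), Mta3 (0.84) and Hdac2 (0.42) were lost, and those for Chd3, Hdac1 and Rbbp4 held. Only 1 WT system is left in that fit and calls over all genes fell as well, so the losses are not particular to these members. The part of the macrophage signal of WT-2 in these values was not tested. Of the 5 differences, that of Gatad2a passed without Mbd3f/-, those of Hdac1, Hdac2 and Rbbp4 without Gatad2a-/- and again without WT-1, and those of Chd3 and Rbbp4 without WT-2. Rescaled, only that of Chd3 passed (2.196, adjusted p = 0.022, 13.1% of all genes called). Gatad2a is the targeted gene in Gatad2a-/-, so its depleted mean includes the disrupted gene, and without Mbd3f/- it holds that gene alone.

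Day by day, the step in Chd3 fell between days 4 and 5 in Mbd3f/-. Its FPKM was 38.3, 62.1, 50.7 and 47.4 on days 1 to 4 and 15.1, 8.89, 10.6 and 12.3 on days 5 to 8. In Gatad2a-/- it was 92.5, 126, 91.9 and 51.8 on days 1 to 4, and 34.2, 25.8, 33.1 and 19.8 on days 5 to 8. No library of days 5 to 8 reached any of days 1 to 4 in either system. In WT-1 it was 73.5, 106, 83.4 and 69.6 on days 2, 4, 6 and 8, and in WT-2 56.7, 65.8, 85.3 and 110. The ratio of Chd4 to Chd3 accordingly went from 1.55 on day 4 to 4.98 on day 5 in Mbd3f/-, and from 1.90 to 3.75 in Gatad2a-/-. It stayed between 0.38 and 0.94 on the days of both WT systems. Averaged over days 2 to 8 and set against MEF, the log2 ratio changed by 1.19 and 1.63 in Mbd3f/- and Gatad2a-/- and by -0.30 and -0.66 in WT-1 and WT-2. The difference of 1.89 gave an exact two-sided permutation p of 0.333, the smallest that 2 systems against 2 allow (adjusted 0.667 over 6 ratios).

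Mta3 followed Chd3 in the opposite direction. In Mbd3f/- it was 19.1, 22.8, 22.4 and 26.5 FPKM on days 1 to 4, then 39.9, 50.2, 114 and 113. In Gatad2a-/- it was 22.9, 41.1, 41.8 and 29.3, then 56.7, 97.2, 108 and 113. Both systems thus passed their iPSC level (64.3 and 97.1) by day 7. In WT-1 and WT-2 it lay between 15.7 and 34.9 on days 2 to 8. The ratio of Mta1 to Mta3 went below 1 on day 6 in Mbd3f/- (0.85) and on day 5 in Gatad2a-/- (0.84). In WT-1 the ratio stayed above 1 through day 8, between 1.09 and 1.57, and in WT-2 it was 0.99 to 1.25.

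The dense courses of the depleted systems allowed 2 tests of timing. Between MEF and days 1 to 3, 4 members rose and 0 fell (33.8% of all genes called, 19.6% higher): Rbbp4 (0.77 ± 0.11), Hdac2 (0.75 ± 0.16), Hdac1 (0.66 ± 0.20) and Mta2 (0.51 ± 0.17). With a pseudocount of 0.1 Gatad2a was a further rise (0.77, adjusted p = 0.049), with quantile normalization only Hdac1 and Rbbp4 passed, and rescaled 0 members did (10.6% of all genes called). Chd3 (-0.02 ± 0.24) and Mta3 (0.13 ± 0.22) had not passed the test by then. From days 1 to 3 to days 5 to 8, 3 members rose and 2 fell (35.1% of all genes called, 16.4% higher and 18.8% lower). Chd3 fell by 1.93 ± 0.16 on the log2 scale (adjusted p = 2.2e-06) and Mta3 rose by 1.54 ± 0.14 (7.3e-06). Smaller changes were those of Hdac1 (0.47 ± 0.13), Hdac2 (-0.32 ± 0.11) and Rbbp4 (0.24 ± 0.07). With a pseudocount of 0.1 Mta1 was a further fall (-0.44, adjusted p = 0.046). Rescaled, only the fall of Chd3 passed, Mta3 was 0.89 (adjusted p = 0.083) and the rises of Hdac1 and Rbbp4 turned to -0.19 and -0.39. Rescaling moved the median of all genes by -0.37 in this comparison. Summed FPKM in Gatad2a-/- was 1.49e+06 to 2.05e+06 on days 1 to 3 and 2.43e+06 to 1.00e+07 on days 5 to 8. In Mbd3f/- it was 618015 to 705664 on those days. The rescaled values depend on these sums. Rbbp4 also missed the threshold with Gm26722 added (0.19, adjusted p = 0.083). By the design text, days 1 to 3 lie before the change of medium and days 5 to 8 after it. Time and medium therefore cannot be told apart in this comparison. In Gatad2a-/- Chd3 was already lower on day 4 than on day 3, and Mta3 was higher on day 2 than on day 1. Mta2 rose early mainly in Mbd3f/- (0.91 alone, against 0.10 in Gatad2a-/- alone, values with no test).

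Rbbp4 in Mbd3f/- was 123, 117, 115, 113, 133, 129, 151 and 177 on days 1 to 8, all above its MEF. In Gatad2a-/- it was 52.6, 62.6, 60.6, 54.6, 60.4, 61.2, 69.6 and 77.4, again all above MEF. In WT-1 it was 89.2, 101, 98.2 and 125 and in WT-2 43.9, 43.2, 37.3 and 31.0, on both sides of MEF. Hdac2 was 121, 122, 128, 139, 120, 119, 93.2 and 98.6 in Mbd3f/-, highest on day 4. In Gatad2a-/- it was 124, 155, 175, 135, 142, 130, 69.1 and 117, highest on day 3 and below MEF on day 7. Cell cycle genes moved with these early rises: 20 of 20 rose between MEF and days 1 to 3. The part of that in the Rbbp4 and Hdac2 values was not tested.

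Gatad2b had the one pattern that went down through the WT courses. WT-1 MEF had 6.72 FPKM, the even days from 2 to 8 had 5.93, 4.97, 2.80 and 0.791, and its iPSC 0.913. For WT-2 the values were 8.35, 7.28, 4.93, 3.40, 2.37 and 4.12 at the same stages. Both WT series were thus lower at each step to day 8, but the change did not pass the test. In Mbd3f/- it was 4.58 to 9.58 on days 1 to 8 beside 8.74 in MEF, and in Gatad2a-/- it was 26.9 to 41.9 beside 23.4. In all 10 Gatad2a-/- libraries Gatad2b was above every WT-2 library of the isogenic line (2.37 to 8.35), a difference between separately normalized tables that was not tested. Other members were also higher in that table, such as Chd4 in MEF (105 beside 47.8), while over 8433 genes the median MEF difference between the 2 tables was 0.10 on the log2 scale. Gatad2a took 17.0 to 33.4% of the Gatad2 pair in Gatad2a-/- and 54.0 to 97.0% in the other 3 systems.

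ES cells, the reference for the pluripotent state, were available in 2 systems and were not tested. Chd3 was low in both, 5.47 in Mbd3f/- and 7.95 in WT-1, and Chd4 took 92.7 and 88.4% of the pair. Mta3 took 41.2 and 43.4% of the Mta sum. Hdac1 was lower in ES than in iPSC in both systems (-0.04 in Mbd3f/- and -1.09 in WT-1), and the other 9 members differed in sign between the 2 systems. Summed with Gm10093, Hdac1 was 131.6 FPKM in iPSC and 209.8 in ES of Mbd3f/-, and 273.5 and 210.2 in WT-1. Its sign then differed between the systems too. ES minus iPSC was -2.13 for Gatad2b in Mbd3f/- and 2.40 in WT-1, -0.95 and 1.30 for Mta1, -0.80 and 0.48 for Gatad2a, and 0.67 and -0.57 for Rbbp4, on the log2(FPKM + 1) scale. With 1 line each, line and state cannot be told apart.

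The remaining NuRD genes and related complexes give the setting. Of the other NuRD subunits, Mbd3 (0.55 ± 0.21), Rbbp7 (0.42 ± 0.16), the histone-binding paralog of Rbbp4, and the remodeller Chd5 (0.50 ± 0.19) rose in iPSC against MEF, Mbd2 fell (-1.70 ± 0.18) and Cdk2ap1 did not pass the test (0.40 ± 0.20, adjusted p = 0.10). The counts of the lists that follow stand beside 29.0% of all genes higher and 23.9% lower. Of 10 factors that bind NuRD, 5 rose and 2 fell. The zinc finger factors Sall4 (6.29 ± 0.61) and Sall1 (4.39 ± 0.42) rose most, and Ikzf1 (-1.17 ± 0.32) and Trps1 (-0.75 ± 0.22) fell. Of 26 genes of other complexes with class I deacetylases, 7 rose and 7 fell (median 0.09). The Sin3 subunit Sap30 (2.69 ± 0.50) and the CoREST gene Rcor2 (2.61 ± 0.37) rose most, and Rcor3 fell (-1.61 ± 0.16). Of 20 other ATP-dependent remodellers and their subunits, 7 rose and 6 fell (median 0.19). Among them Chd7 (1.47 ± 0.26) and Smarcc1 (1.34 ± 0.21) rose most and the motor Smarca2 (-3.83 ± 0.28) and Smarcc2 (-1.85 ± 0.22) fell most.

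Likeness between genes was described over the 34 course libraries, centred within each system, among 21154 genes. These libraries share stages and tables, so r is a description. Chd3 ran with the mean of the 15 fibroblast markers (Pearson r = 0.86) and against that of the 13 pluripotency markers (-0.94), and Mta3 the other way (-0.81 and 0.90). Rbbp4 and Hdac1 ran the same way as Mta3, with r of -0.85 and -0.86 to the fibroblast mean and 0.86 and 0.84 to the pluripotency mean. Rbbp4 (0.82) and Hdac1 (0.84) were about as alike to the mean of the cell cycle genes. Within the complex the closest pair was Hdac1 and Rbbp4 (0.89), and the most opposed was Chd3 and Rbbp4 (-0.84). The paralogs of a pair were less alike: r was 0.05 for Gatad2a and Gatad2b, -0.11 for Chd3 and Chd4, -0.09 for Mta1 and Mta3, 0.33 for Mta1 and Mta2, 0.14 for Mta2 and Mta3 and 0.45 for Hdac1 and Hdac2. The genes most like Mta3 were Mllt10 (0.96), Usp48 (0.96) and Cbfa2t2 (0.95), and most like Chd3 were Anxa5 (0.94), Zhx2 (0.94) and Mgst1 (0.94). Rbbp4 was most like Cul2 (0.95), Cenpp (0.95) and Eed (0.94). Hdac1 was most like Nsmce4a (0.93), Lig1 (0.92) and Hat1 (0.92), and Hdac2 like Rpl22l1 (0.87), Ahcy (0.87) and Bzw2 (0.87). Gatad2a was most like Exosc5 (0.91), Nacc1 (0.91) and Ogg1 (0.90), and Gatad2b like Nipbl (0.95), Tnks (0.94) and Zbed6 (0.93). Mta1 was nearest to Usp24 (0.85), Rad51d (0.85) and Gtf3c1 (0.84), and Mta2 to Thop1 (0.90), Ppp5c (0.89) and Heatr2 (0.88). Chd4 had the weakest neighbours, Nek4 (0.76), Pds5a (0.76) and Cep290 (0.72).

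The Myc libraries ask how the subunits respond to added or reduced Myc. There is 1 library per condition apart from 2 scrambled-siRNA MEF, which leaves 1 residual degree of freedom. No test was run, and a difference counts below only past 2-fold on log2(FPKM + 1). Those 2 MEF libraries differed by a median of 0.10 on the log2 scale over 14174 genes. With cMyc added to OSK for 4 days, Rbbp4 was 88.8 against 207 with OSK alone, and Hdac1 was 21.1 against 48.9. These were the 2 members past 2-fold (-1.21 and -1.17), both lower, where 26.8% of 16430 genes were past it, 15.7% lower. Gm10093 was 67.3 against 93.7 in the same 2 libraries. With cMyc alone Rbbp4 was 138 and Hdac1 22.7, and 0 members were past 2-fold between OSK plus cMyc and cMyc (12.8% of all genes). Mta1 was 34.2 with OSK, 56.8 with OSK plus cMyc and 86.5 with cMyc alone. Mta3 ran the other way, at 39.0, 25.4 and 26.3, so the ratio of Mta1 to Mta3 was 0.88 with OSK, 2.24 with both and 3.28 with cMyc.

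Under the Myc inhibitor for 3 days Mta1 was 101 and Gatad2b 21.3, beside 46.7 and 48.0 for Mta1 and 9.43 and 9.84 for Gatad2b in the 2 MEF. They were the 2 members past 2-fold (1.07 and 1.07), where 20.4% of all genes were past it, 10.1% higher. Rbbp4 (62.8 beside 101 and 106) and Hdac2 (58.1 beside 91.4 and 102) were lower without reaching 2-fold. With siRNA for 3 days 0 members were past 2-fold (12.9% of all genes), and Gatad2b was 4.97, below both MEF, where the inhibitor library was above both. Both day-3 conditions differ from MEF in induction as well as in Myc, which cannot be told apart. At day 7, siRNA against Myc and scrambled siRNA differed by 2-fold in 0 members (7.27% of all genes), and the largest difference was that of Chd3, 56.8 against 95.9 (-0.75). Scrambled siRNA on day 7 against MEF also gave 0 members (12.6% of all genes). Chd3 was 95.9 there and Mta3 42.6, so Chd3 had not gone below MEF by day 7 of OSK.

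**Figure D5:**
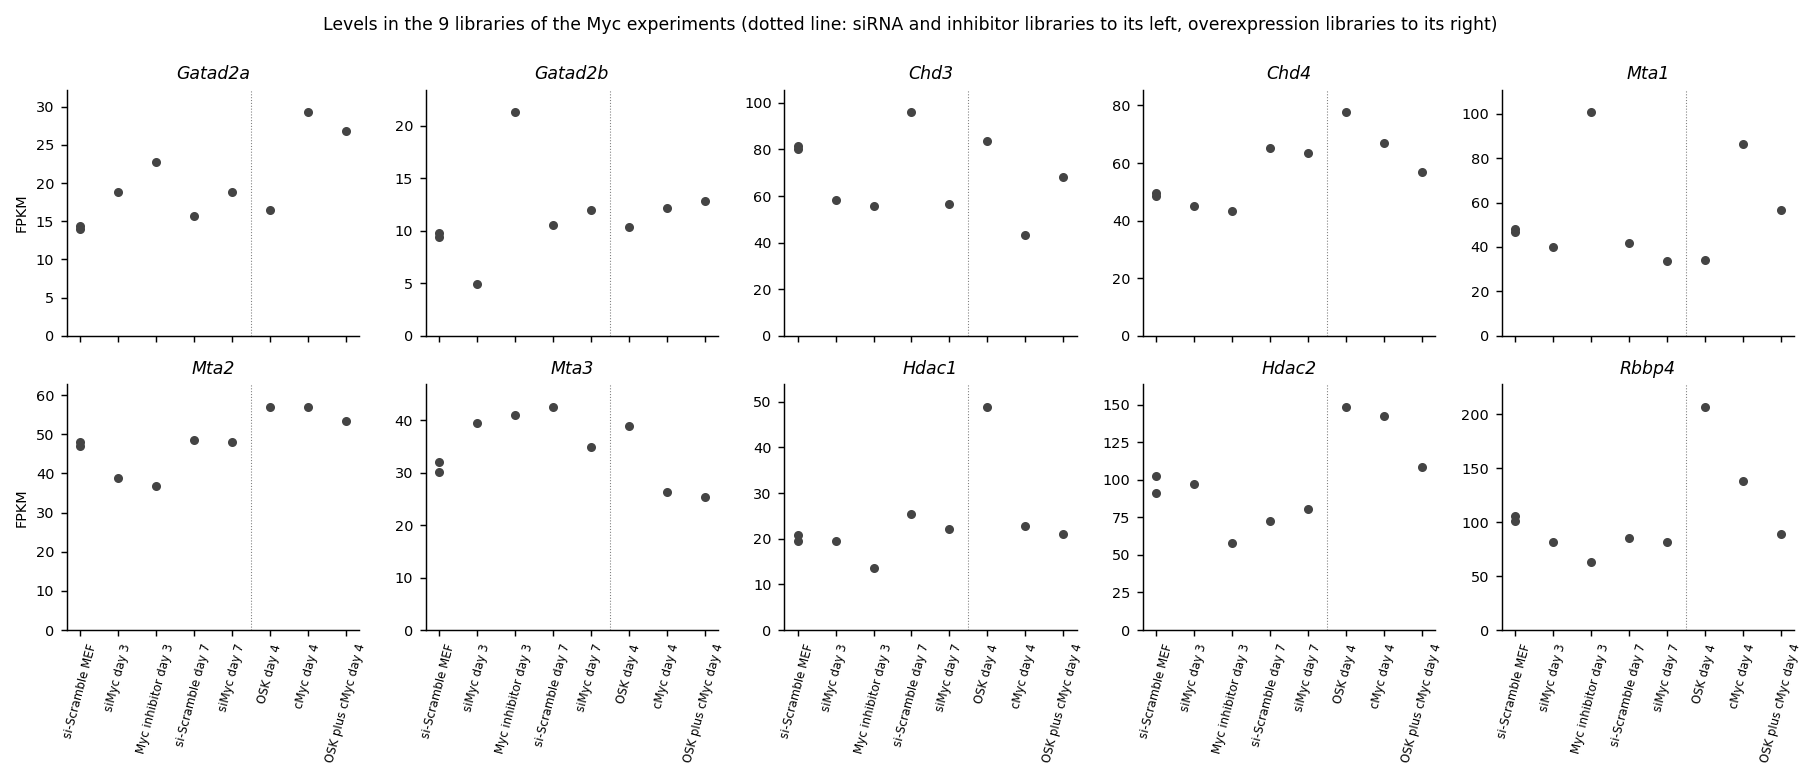
FPKM (y axis, from 0, a scale per gene) of each member in the 9 libraries of the Myc experiments, 1 point per library, with 2 points for scrambled-siRNA MEF. Rbbp4 and Hdac1 are highest with OSK alone, and Mta1 and Gatad2b are highest with the inhibitor.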

How the data were processed

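The authors deposited FPKM per gene in 5 tables with Ensembl identifiers. Per the submitters' processing notes, reads were processed with CASAVA 1.8.2, with TopHat2 2.0.10 on mm10, and with Cufflinks 2.2.1. The release of the annotation and the strand setting are not stated in these sources, so values of overlapping and near-identical genes are uncertain. Depth is unknown. All 43 value columns were matched to samples, and 19 gene identifiers listed more than once were left out. The number of library pairs with identical values was 0.

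Course libraries were tested with limma 3.58.1 (R 4.3.3) on log2(FPKM + 1), which understates changes of low genes, with the trend and robust options and Benjamini-Hochberg adjustment over all genes. The filter asked for an FPKM of 1 or more in 2 or more libraries. All 10 members passed. Each class (depleted or WT) had a mean at each stage, with the system, which is the cell line and the deposited table, as a block. The shared stages gave 24 libraries, 20296 genes and 10 residual degrees of freedom, and the dense depleted courses 20 libraries, 20189 genes and 9. Each stage of a system is 1 library, and the labels do not say whether libraries are separate cultures, so the p-values reflect only how these samples vary. Paralog ratios were compared with exact permutation tests over systems. On simulated data for iPSC minus MEF over 20296 genes, limma called 28 of 100 genes changed by 1 and 87 of 100 changed by 2 on the log2 scale. It also called 4 of 20096 unchanged genes. Only these few genes were changed in the simulation, while 53.0% of all genes were called in the data. The simulated rates are therefore not the power of the tests above.

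Near-identical transcripts (at least 90% identity over 300 bases) were found with BLAST 2.17.0 in GENCODE M21. The members and gene lists were chosen with earlier results of these data known. Named genes are all members, every other NuRD subunit, the 2 largest called rises and falls from MEF to iPSC of each other chromatin list, and the 3 genes most correlated with each member, predicted genes left out. The result of 1 gene under this rule is not reported here. Markers of endothelial cells, keratinocytes, skeletal muscle, and trophoblast and endoderm were also summed in each library. Of 6, 7, 5 and 8 such genes, 3, 4, 2 and 4 were tested between MEF and iPSC, where 1, 0, 0 and 1 rose and 1, 1, 1 and 2 fell. Alternatives were another pseudocount (0.1), no filter, quantile normalization, rescaling, no block, leaving out each system and, chosen after seeing the data, sums with overlapping or near-identical genes.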

Additional observations from a re-analysis of the deposited data

Results flagged for a closer look

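Between days 2 to 8 and MEF, the change of Gatad2a in Mbd3f/- (1.28) stood apart from that in Gatad2a-/- (0.10), WT-1 (-0.06) and WT-2 (-0.03), with a gap of 0.875 of the whole range. The change in the log2 ratio of Mta2 to Mta3 in Gatad2a-/- (-1.04) stood apart from those in Mbd3f/- (0.14), WT-1 (0.11) and WT-2 (0.08), with a gap of 0.955 of the range. Both gaps exceed Dixon's 95% critical value for 4 values, which chance exceeds in about 1 in 20 groups. The search covered 10 members and 6 ratios, each for iPSC minus MEF and for days 2 to 8 minus MEF. Flags such as these can therefore arise by chance alone.

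By the limma test of the difference itself, depleted and WT systems differed for 6 changes. Class varies only between systems, 2 against 2, and the stages of a course were counted as separate. Without the system as a block 0 of these passed. The 6 changes come from 2 comparisons that share the libraries of days 2 to 8 with opposite sign, so they are not independent. Between MEF and days 2 to 8, depleted minus WT was 0.906 for Rbbp4. Between days 2 to 8 and iPSC it was -1.13 for Gatad2a, 1.62 for Chd3, -1.44 for Hdac1, -0.881 for Hdac2 and -1.14 for Rbbp4. The depleted mean of Gatad2a includes Gatad2a-/-, where it is the targeted gene. Beside these stand the fibroblast markers, of which 14 of 15 also differed from days 2 to 8 to iPSC (median 4.28), and the cell cycle genes, of which 18 of 20 did (median -2.24). The part of either list in the member values was not tested.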

How the results depend on the processing

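The counts of members called moved with the setting as follows. Without the system as a block (no replicate block) they were 3 for iPSC minus MEF, 0 for days 2 to 8 minus MEF in the depleted systems and 0 for its difference from WT. For iPSC minus days 2 to 8 they were 0 (depleted), 3 (WT) and 0 (difference), and for the dense courses 1 (days 1 to 3 minus MEF) and 2 (days 5 to 8 minus days 1 to 3). Calls over all genes fell as well without the block. In the order above, the shares of all genes called were 31.6, 15.7, 3.57, 3.43, 25.0, 5.49, 15.0 and 18.5%. With quantile normalization the counts of members were 4 and 2 (days 2 to 8 minus MEF, depleted and difference), 2 and 3 (iPSC minus days 2 to 8, depleted and difference) and 2 (days 1 to 3 minus MEF). The shares of all genes called were 38.2, 16.3, 9.38, 22.7 and 32.0%. Rescaling to a common sum of FPKM moved the median of all genes by -0.37 to 0.24. The same 5 counts of members were then 1, 0, 0, 1 and 0, and that of days 5 to 8 minus days 1 to 3 was 1. The shares of all genes called were 17.0, 4.70, 2.48, 13.1, 10.6 and 22.3%. For iPSC minus MEF both scalings gave 5 (quantile 52.3% and rescaled 36.9% of all genes called). A pseudocount of 0.1 gave 8 there (54.7%), 5 for days 1 to 3 minus MEF (34.4%) and 6 for days 5 to 8 minus days 1 to 3 (37.5%). Without the filter the difference for iPSC minus days 2 to 8 held 3 (13.4% of all genes called). With Gm10093 added to Hdac1 that for days 2 to 8 minus MEF held 2 (14.7%). Leaving out 1 system at a time, which leaves a class with 1 system assumed to vary like the others, gave 6 to 7 for iPSC minus MEF. It gave 2 to 6 and 0 to 1 for days 2 to 8 minus MEF (depleted and difference), and 0 to 1, 3 to 6 and 1 to 3 for iPSC minus days 2 to 8 (depleted, WT and difference). For WT on days 2 to 8 every such fit gave 0. The share of all genes called moved from fit to fit as well, so a moved count is not particular to the members. The dense courses without 1 system have no residual degrees of freedom and gave values with no test.

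Signs turned for Chd4 in iPSC minus MEF (-0.16 with quantile normalization, -0.30 rescaled, -0.10 without WT-2), for Mta1 there (-0.519 to 0.0318 when 1 system was left out, positive without WT-1), and, rescaled, for Hdac1 (-0.19) and Rbbp4 (-0.39) on days 5 to 8 minus days 1 to 3. Gatad2a on days 1 to 3 was -0.0303 without Mbd3f/- and 1.49 without Gatad2a-/-. Depleted minus WT, the ratio of Gatad2a to Gatad2b ranged from -1.48 to 0.36 and that of Mta2 to Mta3 from -1.14 to 0.038 when 1 system was left out, positive without Gatad2a-/-. The ratio of Mta2 to Mta1 was -0.0885 at day 8 alone. The cause was not tested. Paralog ratios for iPSC minus MEF kept their direction in every setting run. Changes of members that no setting called, other than iPSC minus MEF, are not listed.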
